A study of Mus musculus with 3 samples.

Results

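Nonclassical monocytes of the naive brain were taken as the cells of cluster 4 in the authors' deposited clustering of brains without metastases. They numbered 166 of 2653 naive brain cells, of which 148 carried the control label and 18 the depleted label. The 3 deposited matrices together list 11510 cells. Nonclassical monocytes, also called Ly6C-low monocytes, are the monocytes that crawl along the inner wall of blood vessels and survey the endothelium. They arise mostly from classical, Ly6C-high monocytes under the nuclear receptor Nr4a1 and the factor Cebpb, and in the brain they are found in the vessels and at the borders rather than in the tissue. They are set here against the other myeloid clusters of the same brains, clusters 0, 3 and 7.

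The study asked what happens to brain immune cells when microglia, the resident macrophages of the brain, are removed. Both naive brain groups came from female C57Bl/6 mice aged 2 to 3 months and free of metastases. The group labelled control carried Cx3cr1CreERT, a recombinase that tamoxifen switches on in cells using the Cx3cr1 promoter. The group labelled depleted carried Cx3cr1CreERT-ROSA-iDTR, which adds a Cre-dependent receptor for diphtheria toxin. Both groups received tamoxifen, rested for 1 month, and then received diphtheria toxin. Monocytes also use the Cx3cr1 promoter, and the rest allows short-lived blood cells to be replaced. Immune cells were enriched on Percoll, so shares are of recovered cells. Per the submitters, depletion left a remnant of microglia. Cells were stained with 35 antibodies and 8 hashing antibodies, pooled, and read with the 10x 3' v3 assay. Blood came from mice of the same 2 genotypes that carried metastases of E0771, a mouse mammary tumour line, so tissue and metastasis cannot be told apart in any comparison with blood.

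The arm of a cell rests on its hashing antibody, and its surface class on antibody tags, so their tag sequences are shown. All 785 cells labelled control carried the first tag and all 1868 cells labelled depleted the second. The other 3 tags report CD11b, an integrin of myeloid cells, Ly6C, which separates the monocyte classes, and Ly6G, a neutrophil protein.
M-HTO-1: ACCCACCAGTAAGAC
M-HTO-4: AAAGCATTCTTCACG
CD11b: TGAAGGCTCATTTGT
Ly6C: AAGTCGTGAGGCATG
Ly6G: ACATTGACGCAACTA

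The 5 genes that mark these cells are Ear2, a secreted ribonuclease, Adgre4, an adhesion receptor, Treml4, an innate receptor, Ace, the angiotensin converting enzyme, and Cd300e, an activating receptor. In RefSeq (GRCm38.p6) Ear2 lies at chr14:44102654-44103531 and Adgre4 at chr17:55749984-55853662. Treml4 lies at chr17:48264200-48275607, Ace at chr11:105967948-105989964 and Cd300e at chr11:115051917-115066676. RefSeq promoter windows, from 250 bases before to 50 after each start, were available for 6 starts of the 5 genes. They were searched on both strands for TTGCNNAA, a form of the C/EBP site, because Cebpb was among the genes higher in cluster 4. The letters were found in 2 of the 6 windows, those of Ear2 and Adgre4, and in 10.8% of 32851 promoters. The PU.1 letters GAGGAAGT were found in the Adgre4 window and in 3.20% of promoters. The letters AAAGGTCA, bound by NR4A1, were in none of the 6 and in 1.51% of promoters. The KLF letters CCACACCC and the octamer ATTTGCAT were also in none of the 6, and in 3.56% and 1.74% of promoters. The 2 windows with matches are printed with those letters in capitals, Ear2 at chr14:44102404-44102703 and Adgre4 at chr17:55749734-55750033, both on the plus strand. In Adgre4 both matches read on the opposite strand.
Ear2: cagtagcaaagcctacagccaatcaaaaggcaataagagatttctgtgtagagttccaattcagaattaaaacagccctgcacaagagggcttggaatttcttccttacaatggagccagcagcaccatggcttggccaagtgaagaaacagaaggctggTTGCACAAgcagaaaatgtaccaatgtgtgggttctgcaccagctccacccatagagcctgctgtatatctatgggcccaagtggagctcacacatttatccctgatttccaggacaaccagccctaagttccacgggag
Adgre4: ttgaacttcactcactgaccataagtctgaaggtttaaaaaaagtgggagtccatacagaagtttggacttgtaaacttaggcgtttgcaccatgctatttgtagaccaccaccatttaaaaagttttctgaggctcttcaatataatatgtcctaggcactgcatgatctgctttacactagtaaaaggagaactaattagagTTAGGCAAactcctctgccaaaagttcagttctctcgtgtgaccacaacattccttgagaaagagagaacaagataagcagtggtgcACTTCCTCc

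Depth differed between the clusters compared. Cells of cluster 4 had a median of 5951.5 raw UMIs (captured RNA molecules; range 741 to 33749) and 2148 genes, against 14083 UMIs in cluster 0, 24399 in cluster 3 and 8121 in cluster 7. The 2 arms of cluster 4 were alike in depth, with medians of 5935.5 UMIs in control and 6113 in depleted cells. The deposited matrix holds UMIs that the authors corrected for depth, and correction added molecules to cluster 4 (1.33 corrected per raw UMI) and removed them from clusters 0, 3 and 7 (0.546, 0.313 and 0.803). Levels are given as CP10k, corrected UMIs per 10000 summed over the cells of a group, with exact 95% Poisson intervals where shown. With a single hashed sample in each arm, nothing was tested. Intervals cover counting error only and are too narrow, because molecules of 1 cell are not independent. Clusters were built from these genes, so differences between clusters are descriptions. Of the 166 barcodes, 29 (17.5%) were also listed in another matrix, 22 of them in blood and 10 in the brain with metastases, against 29.8% in cluster 0, 62.2% in cluster 3 and 65.7% in cluster 7. Of the 22 shared with blood, 21 were in blood cluster 1, and all 22 had the same raw RNA and antibody totals in both tables. Their hashtag totals differed in all 22, and 19 carried the control label in the brain table against 7 in the blood table. The arm labels also sit beside a check that goes against them: cluster 0, where microglia markers were highest, held 17.1% of cells labelled control and 36.7% of those labelled depleted. Whether the 2 arm labels are exchanged was not tested, and each direction between arms is given as labelled.

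The 5 markers separated cluster 4 from every other myeloid cluster. Ear2 stood at 8.03 CP10k (7.58 to 8.51) in cluster 4, against 0.593 in cluster 3, 0.524 in cluster 7 and 0.103 in cluster 0. Adgre4 stood at 5.39 CP10k (5.02 to 5.79), against 0.357, 0.359 and 0.0757 in the same order. Treml4 reached 3.61, Ace 3.31 and Cd300e 3.16 CP10k, and none of the 3 exceeded 0.38 in clusters 0, 3 or 7. The name therefore rests on all 5 markers. At least 3 of them were detected in 149 of 166 cells (89.8%, exact Clopper-Pearson 95% interval 84.1 to 93.9), and all 5 in 82 cells. At least 3 were detected in 39 of 283 cells of cluster 3 (13.8%), in 12 of 105 of cluster 7 (11.4%) and in 25 of 820 of cluster 0 (3.05%). In the T cells of cluster 1, which should lack them and had a median of 6534 raw UMIs, 4 of 499 cells (0.802%) held 3 or more. The 2 cells of cluster 4 without any marker and the 7 with 1 were kept. When each cell was thinned to 2000 corrected UMIs, which left out 19 cells of cluster 4, Ear2 was detected in 72.8% of cells (89.2% unthinned) and Cd300e in 42.9% (77.7% unthinned).

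**Figure D1:**
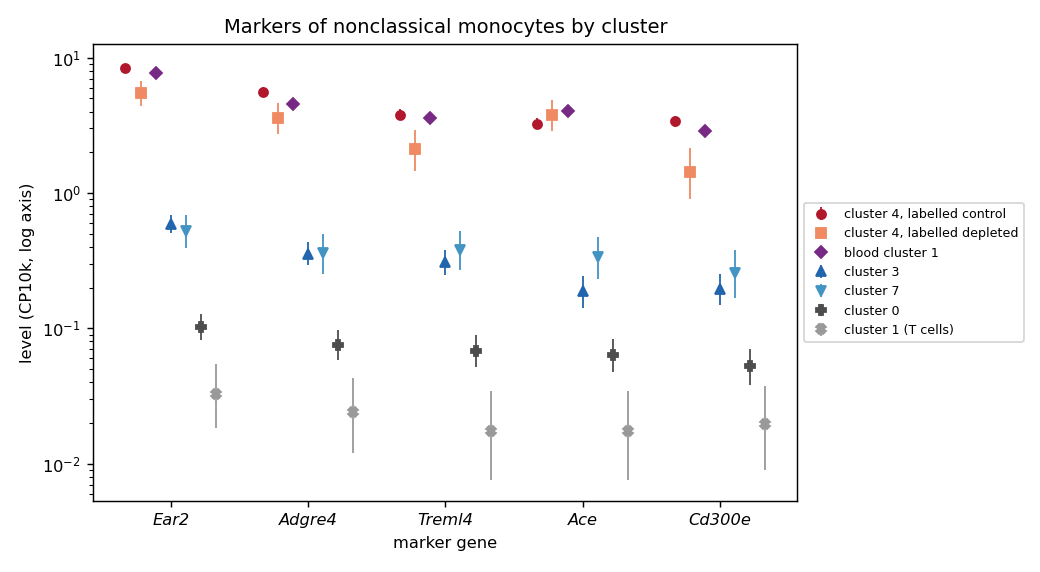
Level of the 5 markers in CP10k (log axis) in cluster 4 by arm label, in blood cluster 1 and in clusters 3, 7, 0 and 1 of the naive brain, with exact 95% Poisson intervals as bars. Cluster 4 and blood cluster 1 lie together above the other clusters for every marker, for example Ear2 at 8.35 and 5.50 CP10k in the 2 arms and 7.67 in blood. Blood cluster 1 was chosen for its high sum of these 5 markers.

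Measured genes were those at 0.5 CP10k or more on at least 1 side, and called means past 2 fold on log2 ratios with a pseudocount of 0.1 CP10k. Against cluster 0, 541 of 3509 genes were higher (15.4%) and 574 lower (16.4%). Against cluster 3, 315 of 3323 were higher (9.48%) and 411 lower (12.4%). Against cluster 7, 672 of 3250 were higher (20.7%) and 358 lower (11.0%). The medians over all genes were 0.19, 0.17 and 0.45. Higher than each of the 3 clusters were 150 of 2796 genes (5.36%), and lower than each were 40 of 1753 (2.28%).

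The 20 genes that led cluster 4 over its nearest other myeloid cluster held the 5 markers and 15 others. Spn, the sialophorin CD43 that is used to sort these monocytes, stood at 5.44 CP10k against 0.195, 0.573 and 0.483 in clusters 0, 3 and 7. Itga4, the alpha chain of the VLA-4 integrin, stood at 10.4 against 0.701, 2.02 and 1.97. S1pr5, a receptor for sphingosine 1-phosphate that guides cells out of the marrow, stood at 0.836 against 0.0159, 0.0549 and 0.103. Eno3, an enolase, reached 4.38 CP10k and Fabp4, a fatty acid carrier, 4.0, each at most 0.370 in the other 3 clusters. Il10, an anti-inflammatory cytokine, stood at 3.29 CP10k and at most 0.309 elsewhere. The remaining genes were Dusp16, Smpdl3b, Grk3, Gngt2, Heg1, Ldlrad3, Cyth3, Smc6 and Wnt6. At the other end, Ms4a7, a membrane protein of macrophages, was at 0.0343 CP10k against 1.83 in cluster 0 and 6.21 in cluster 3. Fcgr3, an IgG receptor, was at 0.706 against 5.88, 3.42 and 3.34.

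Genes known from Ly6C-low monocytes, other than the markers, were higher as a group. Of 21 listed, 20 were measured against cluster 0 and 18 were past 2 fold higher and 0 lower, with a median log2 ratio of 2.99. The counts were 15 higher and 0 lower against cluster 3 (median 2.16) and 18 higher and 1 lower against cluster 7 (median 2.41). The list did not hold Cx3cr1, whose promoter monocytes also use. In control-labelled cells Cx3cr1 stood at 0.609 CP10k in cluster 4, below cluster 0 at 1.72 and cluster 3 at 0.873. In depleted-labelled cells it stood at 3.77, below cluster 0 at 10.0 and above cluster 3 at 1.90. Nr4a1 stood at 18.8 CP10k in cluster 4, against 1.79, 5.21 and 3.39 in clusters 0, 3 and 7, and was detected in 166 of 166 cells (92.5% of 147 cells after thinning). Detection is of corrected UMIs, and 63.9% of cluster 4 cells held more genes after the correction than before it. Cebpb stood at 41.3 CP10k against 5.20, 11.5 and 16.4, and was also detected in every cell (99.3% after thinning). Pou2f2, a lymphoid and monocyte factor, stood at 9.86 against 3.31, 1.72 and 1.43. Itgal, the alpha chain of LFA-1 that holds these cells to the endothelium, stood at 8.56 against 0.542, 1.22 and 2.67. The exception against cluster 7 was Pglyrp1, a granule protein, at 5.15 against 15.9 CP10k.

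Other transcription factors went both ways. Klf4, needed for monocyte formation, stood at 7.60 CP10k against 2.30, 2.63 and 1.04. Maf, a macrophage factor, stood at 0.288 CP10k, against 3.04 in cluster 0 and 1.21 in cluster 3. Cebpa, a factor of early myeloid cells, was at 0.0823 against 2.93 in cluster 0 and 1.13 in cluster 3. In all, 7 of 15 measured factors were past 2 fold higher and 4 lower than in cluster 0.

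Adhesion and trafficking genes split in the same manner. Of 18 measured against cluster 0, 10 were past 2 fold higher and 5 lower. The integrin genes Itgal, Itgb2 and Itga4 and Pecam1, an endothelial and leukocyte adhesion protein, were higher than in each of the 3 clusters; Pecam1 stood at 1.47 CP10k against at most 0.247. The chemokine receptor gene Ccr1 was lower than in each, at 0.0754 CP10k against 0.842, 1.83 and 3.99. Cx3cr1 itself stood at 0.960 CP10k, against 8.69 in cluster 0. These pooled levels also carry the label mix, since 148 of 166 cluster 4 cells and 134 of 820 cluster 0 cells were labelled control. The gap was smaller with each label taken alone. Control-labelled cells had Cx3cr1 at 0.609 CP10k in cluster 4 against 1.72 in cluster 0. For depleted-labelled cells the values were 3.77 and 10.0 CP10k.

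Genes of classical monocytes set cluster 4 apart from cluster 3. All 11 were measured there, 9 were past 2 fold lower and 1 higher, with a median of -3.04. Ly6c2, which encodes the Ly6C antigen, stood at 0.206 CP10k against 7.82 in cluster 3, and Ccr2, the receptor for exit from the marrow, at 0.802 against 5.72. Hp, haptoglobin, was the member higher in cluster 4, at 11.8 against 5.48.

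MHC class II genes, which present antigen to helper T cells, were lower than in clusters 0 and 3. All 8 measured MHC class II genes were past 2 fold lower than in cluster 3 (median -3.61) and all 6 lower than in cluster 0 (median -2.06). H2-Aa stood at 2.19 CP10k against 44.7 and 10.1. Against cluster 7, 0 of 5 passed 2 fold. Of 12 measured MHC class I genes 1 was past 2 fold lower than in cluster 0 (median -0.032), 6 were lower than in cluster 3 (median -0.86), and 1 was higher and 2 lower than in cluster 7. Of 27 measured interferon response genes, 26 were past 2 fold lower than in cluster 3 (median -2.64), 10 of 15 were lower and 1 higher than in cluster 0, and 3 of 13 were lower than in cluster 7. Isg15, a ubiquitin-like interferon product, stood at 0.432 CP10k against 8.36 in cluster 3. The complement genes C1qa, C1qb and C1qc were lower than in each cluster, C1qa at 2.17 CP10k against 83.4, 21.3 and 7.31.

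Secreted mediators were mixed. Of 14 chemokines measured against cluster 3, 10 were past 2 fold lower and 0 higher, among them Cxcl9 and Ccl2. Il1b, the main secreted interleukin 1 of myeloid cells, stood at 38.4 CP10k, above cluster 0 at 7.30 and near clusters 3 and 7 at 33.5 and 41.6. Tnf stood at 1.67 against 8.01 in cluster 0. Cd274, the ligand PD-L1, stood at 2.17 against 0.267, 1.20 and 0.349. Fcgr4 was the activating IgG receptor that was past 2 fold higher than in clusters 0 and 7, at 1.98 CP10k against 0.50 and 0.894, and it did not pass against cluster 3 at 1.79.

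**Figure D2:**
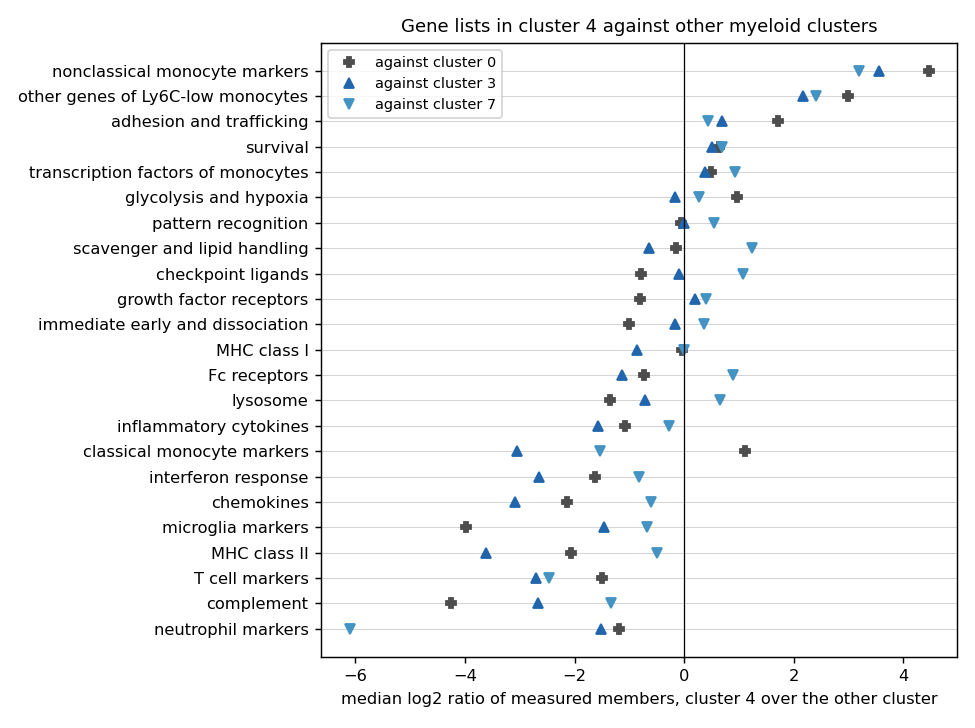
Median log2 ratio of the measured members of each gene list, cluster 4 over clusters 0, 3 and 7, for lists with 3 or more measured members. Marker and Ly6C-low lists lie to the right for all 3 clusters, and MHC class II, interferon and complement lists to the left, the first at -0.49 against cluster 7.

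Transcripts that mark other cells were also detected. The 12 microglia markers summed to 9.99 CP10k in cluster 4, against 154 in cluster 0 and 9.08 in the T cells of cluster 1. They were found in 163 of 166 cells at a median of 6 corrected UMIs. The 12 neutrophil markers summed to 24.1 CP10k, with Ly6g at 0, and 5 cells held 72.2% of their UMIs. T cell markers summed to 0.590 CP10k. Lyve1 and Cd163 of border macrophages, Xcr1 and Clec9a of dendritic cells and Ncr1 and Klrb1c of NK cells were at 0. The part of these transcripts in the cluster's levels was not tested.

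By surface protein, most of the cells fell where their name puts them. The authors' gates placed 112 of 166 (67.5%, 59.8 to 74.5) among CD11b+ Ly6C-low cells. A further 37 (22.3%) fell in the gate for myeloid cells native to the central nervous system, 8 among B220+ cells, 5 among Ly6C-high cells, 3 among Ly6C+ Ly6G+ cells and 1 in the CD3 or NK1.1 gate. Of the control label 105 of 148 cells were Ly6C-low (70.9%), and of the depleted label 7 of 18 (38.9%, 17.3 to 64.3). The 37 cells in the native gate were shallower, with a median of 1986 raw UMIs against 6156.5 in the Ly6C-low gate. They kept the markers, with Ear2 at 5.97 CP10k against 8.65, and their microglia markers summed to 25 CP10k against 5.99. Tmem119, a microglial membrane protein, stood at 1.58 CP10k in them and 0 in the Ly6C-low subset, and neutrophil markers at 24.2 against 3.87.

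Cluster 4 made up 18.9% of cells labelled control (148 of 785, interval 16.2 to 21.8) and 0.964% of those labelled depleted (18 of 1868, 0.572 to 1.52). The ratio held among myeloid cells alone: of the cells in clusters 0, 3, 4 and 7 it was 33.5% against 1.93%, a ratio of 17.3 (10.6 to 30.1). Without shared barcodes the shares were 23.9% and 1.03%. The surface gate gave a smaller contrast, since the Ly6C-low gate held 19.5% of control and 6.42% of depleted cells, a ratio of 3.03 (2.37 to 3.89). Outside cluster 4 that gate held 6.11% and 6.05%, a ratio of 1.01 (0.706 to 1.43). Within the gate, cluster 4 was 68.6% of control cells (105 of 153) and 5.83% of depleted cells (7 of 120), cluster 3 was 8.5% and 39.2%, and cluster 0 was 6.54% and 25.8%. Cells with 3 or more markers anywhere were 22.7% of control and 3.05% of depleted cells. Of cells outside cluster 4 they were 7.06% and 2.22%. Fewer cells and a change in what was recovered cannot be told apart, and with 1 sample a group the label and the mouse cannot be told apart.

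**Figure D3:**
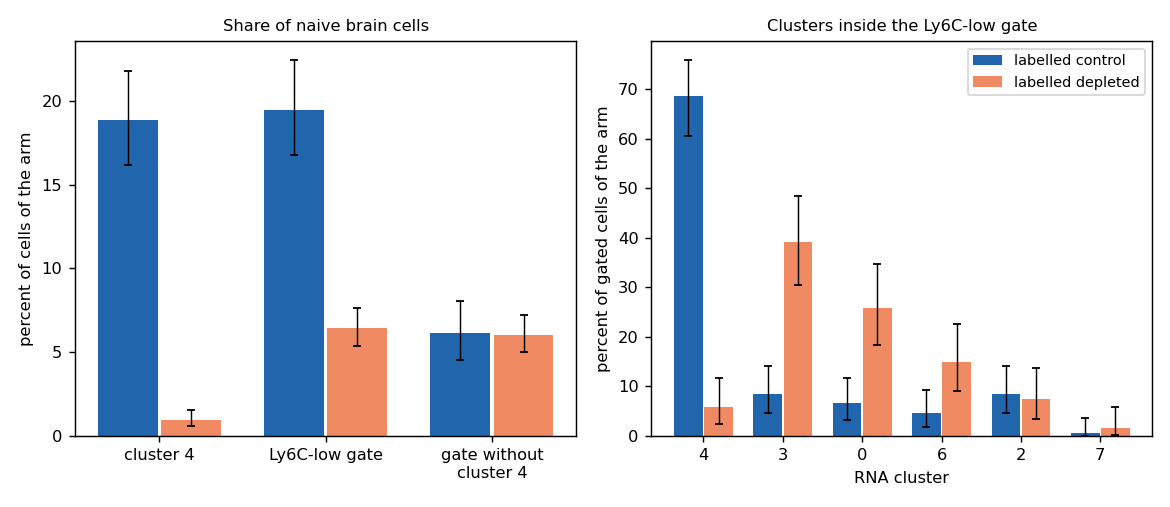
Left, percent of naive brain cells of each arm label in cluster 4, in the Ly6C-low surface gate and in that gate outside cluster 4. Right, percent of the gated cells of each arm in RNA clusters 4, 3, 0, 6, 2 and 7. Bars carry exact 95% Clopper-Pearson intervals, and cluster 4 is 68.6% of the gate in cells labelled control and 5.83% in cells labelled depleted.

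Some cytokine genes were detected in a minority of cluster 4 cells. Il10 was detected in 52 of 166 cells and Areg, amphiregulin, a growth factor of the EGF family, in 35. Both were detected in 12 cells and neither in 91. The 10 highest cells held 51.5% of Il10 UMIs and 66.8% of Areg UMIs. Median raw UMIs were 5932 in cells with Il10, 5973 in cells without Il10 and 5983 in cells with Areg. The part of depth in their detection was not tested. Cells with Il10 had Cxcl2, a neutrophil chemokine, at 28.7 CP10k against 12.5, and Apoe, a lipid carrier, at 16.9 against 31.3. Of the markers, Treml4 stood at 4.50 and 3.19 CP10k in cells with and without Il10, Cd300e at 3.67 and 2.92, Ear2 at 9.08 and 7.55, Ace at 3.45 and 3.24 and Adgre4 at 5.34 and 5.42.

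Between the arms, the 18 cells labelled depleted were set against the 148 labelled control. Of 3152 measured genes, 156 were past 2 fold higher under the depleted label (4.95%) and 205 lower (6.50%), with a median of -0.05. Of the 5 markers only Cd300e passed 2 fold, at 1.42 CP10k under the depleted label and 3.38 under control. Nr4a1 (17.5 and 19.0) and Cebpb (41.0 and 41.4) were close. A corrected UMI of Nr4a1 was found in all 18 and all 148 cells.

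Areg was found in 35 of 148 cells labelled control (425 UMIs) and in 0 of 18 labelled depleted, which allows a share of up to 18.5%. Taking 3 counts over the group as the floor, its level was 17.7-fold higher under the control label. That figure is no firm bound, since it treats UMIs as independent and the 10 highest cells held 66.8% of them. By cells, the control share was 23.6% (17.1 to 31.3), an interval that overlaps the one of the depleted label. Il10 was found in 51 of 148 cells (34.5%, 26.8 to 42.7) and in 1 of 18, with 478 and 2 UMIs, a ratio of 29.8 (8.20 to 247). Tppp3, a tubulin-associated protein, was found in 50 of 148 and 0 of 18 cells, 6.07-fold higher with the same floor of UMIs. Mmp14, a membrane-bound matrix protease, was found in 77 of 148 and 2 of 18 cells. Gk, glycerol kinase, was found in 75 and 2. AA467197, Nr1h3, Il4i1, Plxnd1 and Sdc1 completed the 10 lowest, each at 0 UMIs under the depleted label.

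Cx3cr1 was higher under the depleted label, in 14 of 18 cells (77.8%) against 50 of 148 (33.8%), at 3.77 against 0.609 CP10k, a ratio of 6.19 (4.36 to 8.76). Cluster 0 differed the same way, at 10.0 in cells labelled depleted and 1.72 in those labelled control. So did cluster 3, at 1.90 and 0.873 CP10k, and blood cluster 1, at 3.64 and 0.286. The cause of this Cx3cr1 difference was not tested. Ccr2 was found in 10 of 18 and 32 of 148 cells, at 2.97 and 0.532 CP10k. Jaml, a junctional adhesion molecule, was found in 4 of 18 and 3 of 148 cells. The other leading genes under the depleted label rested on few cells. Cox6a2 had 25 of its 25 UMIs there in 1 cell, Ly6d 55 of 55, and Chil3 62 of 79. Il7r, Cd8a, Hspa1a, G0s2 and Smim5 also led the list, and T cell markers summed to 2.04 CP10k under the depleted label against 0.409 under control, with 90.9% in 5 cells. The part of these cells in the difference was not tested.

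Among lists, interferon response genes were higher under the depleted label in 11 of 11 measured members, 4 past 2 fold, with a median of 0.77. Bst2, a membrane protein that tethers viruses, stood at 5.07 against 1.81 CP10k, with 52 of its 82 UMIs under the depleted label in 1 cell. Microglia markers also differed this way: 7 of 7 measured members were higher under the depleted label, 2 past 2 fold, with sums of 12.1 against 8.85 CP10k. Of the microglia marker UMIs of the 18 cells, 66.0% were in 5 cells, and their part in the interferon, Egr1 and Apoe values was not tested. Of 16 immediate early and dissociation genes 5 were past 2 fold higher and 1 lower, with Egr1 at 17.5 against 5.88. Il1b stood at 20.3 against 40.6 CP10k and Apoe at 60.9 against 22.5. Of the classical monocyte markers 7 were measured, 4 past 2 fold higher and 1 lower.

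**Figure D4:**
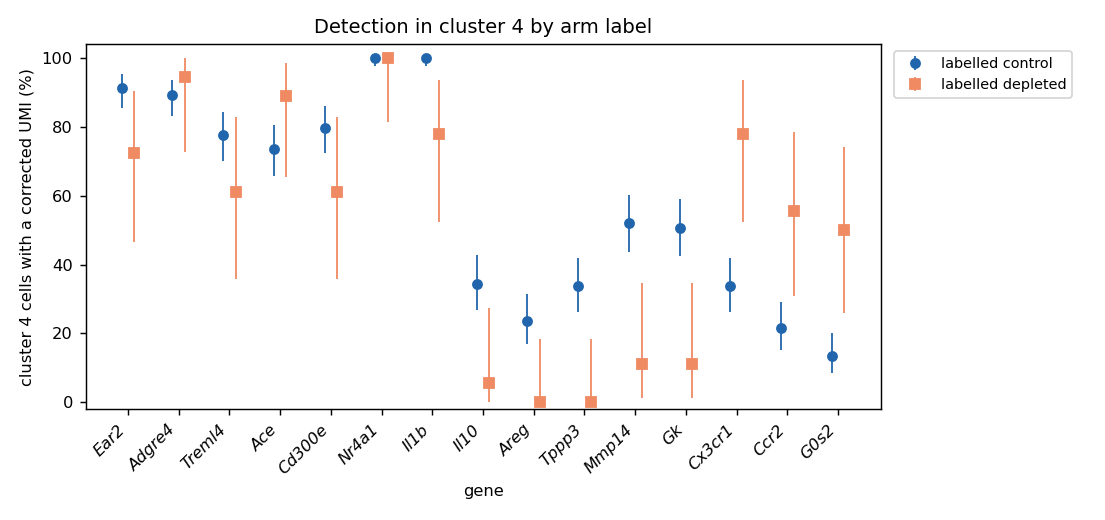
Percent of cluster 4 cells with at least 1 corrected UMI of each gene, by arm label, with exact 95% Clopper-Pearson intervals; 148 cells labelled control and 18 labelled depleted. Il10 lies at 34.5% and 5.56%, and Cx3cr1 at 33.8% and 77.8%.

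Nonclassical monocytes of the blood, cluster 1 of the blood table with 481 cells, had the 5 markers at similar levels and lower immediate early, chemokine and cytokine genes. That cluster was chosen because the summed level of these same 5 markers was highest in it among the blood clusters. Its marker levels are therefore a description and no separate support for the name. The matrices were normalized separately, and the blood came from mice with metastases. Of 3265 measured genes, 97 were past 2 fold higher in the brain (2.97%) and 62 lower (1.90%), with a median of 0.01. The 5 markers differed little, Ear2 at 8.03 CP10k in brain and 7.67 in blood and Ace at 3.31 and 4.04. Of the 20 other Ly6C-low genes measured, 2 passed 2 fold: Nr4a1 at 18.8 against 4.54, and Fabp4 at 4.0 against 1.36. Nr4a1 was also higher in the brain in neutrophils (brain cluster 7, blood cluster 0), at 3.39 against 0.528 CP10k. In T cells (brain cluster 1, blood cluster 5) Nr4a1 was lower in the brain. The cause of the Nr4a1 difference was not tested.

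The red cell markers, haemoglobin genes among them, were lower in the brain in 4 of 4 measured members, all past 2 fold, with a median of -4.01 and sums of 0.212 against 14.4 CP10k. Immediate early and dissociation genes were higher. All 14 measured members were higher in the brain and 13 passed 2 fold, with a median of 1.93. Fos stood at 18.7 CP10k against 2.36 in blood, Egr1 at 7.17 against 0.824, and Dusp1, a phosphatase of stress signalling, at 20.3 against 2.83. The same list was less shifted in other cells compared the same way: in T cells (brain cluster 1, blood cluster 5) 0 of 15 passed 2 fold, with a median of 0.17. In neutrophils (brain cluster 7, blood cluster 0) 6 of 14 passed, with a median of 0.92. Per the labels' protocols, brain tissue was digested and blood was freed of red cells, and the part of digestion cannot be told apart from that of tissue.

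Chemokines and cytokines followed. Of 8 measured chemokines 4 were past 2 fold higher and 0 lower (median 1.13), led by Ccl3 at 6.20 CP10k against 0.745 and Ccl4 at 7.55 against 1.08. Of 6 inflammatory cytokines 3 were past 2 fold higher (median 1.19). In neutrophils compared the same way, 6 of 8 chemokines were past 2 fold higher in the brain and 1 lower (median 1.47). Of their 8 cytokines 3 were higher and 1 lower (median 0.22). In T cells 0 of 6 chemokines were higher and 3 lower (median -0.47), and of 3 cytokines 1 was higher and 1 lower (median -0.31). Il10 stood at 3.29 CP10k in brain and 0.377 in blood, and Il1b at 38.4 and 8.95. Among genes lower in the brain, classical monocyte markers had 6 of 8 measured members past 2 fold. Chil3 stood at 0.850 against 4.79 and Ccr2 at 0.802 against 2.72. The label mix differed, with 148 of 166 brain cells and 95 of 481 blood cells labelled control. Under the control label Ccr2 stood at 0.532 in brain and 5.21 in blood, and Chil3 at 0.347 and 4.44. Under the depleted label Ccr2 stood at 2.97 and 2.09, and Chil3 at 4.88 in both, with 62 of its 79 brain UMIs in 1 cell. Cx3cr1 was lower in the brain at 0.960 against 2.96 CP10k, but with the control label alone it was 0.609 in brain and 0.286 in blood.

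**Figure D5:**
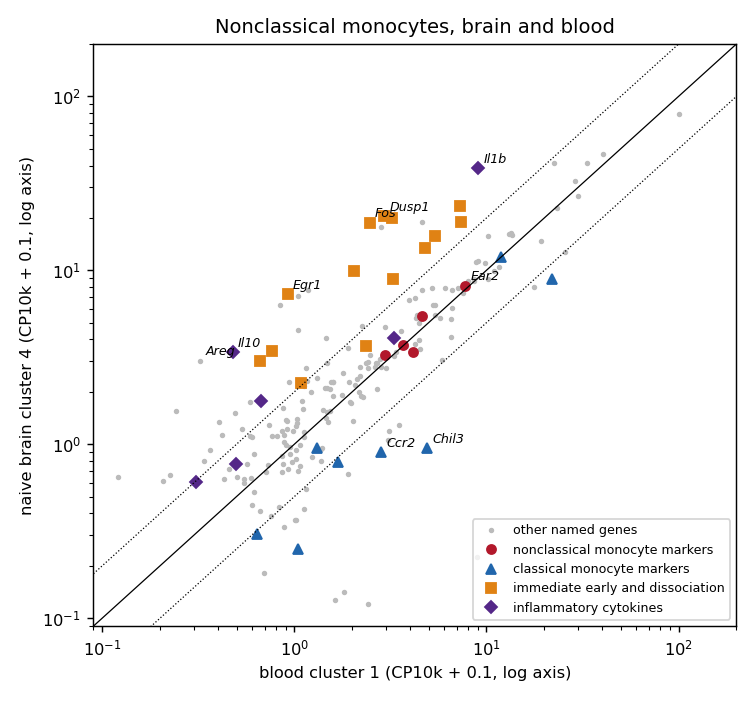
Level of the named genes in naive brain cluster 4 against blood cluster 1, in CP10k plus 0.1 on log axes, with gene lists in colour; the solid line is equality and dotted lines mark 2 fold. Immediate early genes such as Fos (18.7 and 2.36 CP10k) lie above the upper dotted line, and Ear2 lies near equality.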

How the data were processed

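RNA, antibody tags and hashtags were read from 1 pool of 8 hashed samples. The submitters' processing notes name Cell Ranger 3.1, Seurat 3.1.1 and mm10, without saying what each was used for. Values deposited by the authors are on a natural log scale: 1 was added to depth-corrected UMIs, each matrix apart, and undoing the log gave whole numbers. The plan had assumed raw counts, and corrected UMIs were used instead. Raw UMI counts, hashtag counts, antibody tag counts, hashtag scores, clusters, gates and arms were deposited by the authors in annotation tables, of which 34 other columns stayed unused. No doublet caller was run. Corrected UMIs were summed by group and scaled to 10000 (CP10k); log2 ratios used a pseudocount of 0.1, and measured genes reached 0.5 CP10k on at least 1 side. There was 1 sample per arm, so no test was made and no p-value is given. Shares carry exact Clopper-Pearson 95% intervals, ratios exact conditional intervals and sums exact Poisson intervals. Named genes were the 20 highest and 10 lowest of cluster 4 against its nearest of clusters 0, 3 and 7, the 10 highest and 10 lowest between arms and between brain and blood, and members of 31 gene lists. Members and lists were chosen with earlier results of these data known. The procedure was tested on simulated data. Alternatives changed the pseudocount, the filter, the scaling, shared barcodes, depth and the gate. Python 3.11.15, numpy 2.4.6, pandas 2.3.3, scipy 1.17.1 and matplotlib 3.10.9 were used.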

Additional observations from a re-analysis of the deposited data

Results flagged for a closer look

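For 10 of 193 genes compared, the ratio of depleted over control label went one way in naive brain cluster 4 and the other way in blood cluster 1, past 2 fold in both. With 1 sample per arm and tissue these differences were not tested. The 193 genes were a part of those measured, since 3152 were measured between arms in the brain, and no share over all genes is given. Il7r, Jaml, Mmp14 and Plxnd1 had been named for the size of their brain ratio between arms. The count therefore partly reflects that choice. The brain log2 ratio minus the blood log2 ratio was 3.56 for Ccr2, 2.84 for Fcgr3, 2.49 for Ly6c2, 2.43 for Runx3 and 3.17 for Slfn5. It was 4.0 for Jaml and 5.23 for Il7r, whose brain values rest on 4 cells and 2 cells. It was -4.30 for Mmp14, -3.47 for Pecam1 and -4.05 for Plxnd1. Several others also rest on low levels in the 18 brain cells labelled depleted. Ly6c2 and Pecam1 stood at 0.557 CP10k there, Runx3 at 0.618 and Slfn5 at 0.742, beside Jaml at 0.680. Ccr2 stood at 2.97 CP10k under the depleted label and 0.532 under control in the brain, and at 2.09 and 5.21 in blood. Mmp14 stood at 0.124 and 1.87 in the brain, and at 1.14 and 0.450 in blood. Plxnd1 had 0 UMIs under the depleted label in the brain, so its value depends on the pseudocount.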

How the results depend on the processing

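Each arm was 1 sample, so the spread between mice is unknown and no paired analysis was possible because each arm has 1 sample. Of 1105 alternatives for named genes 878 kept the value within its counting interval, 222 moved and 5 reversed; for list medians the numbers were 722, 184 and 1 of 907. The 20 leading genes stayed past 2 fold in all 8 settings, and of the 10 low genes 5 did with a pseudocount of 0.5, 9 with the control label alone or without the deepest and shallowest 10% of cells, and 10 in the other 5 settings. With a pseudocount of 0.5, the counts past 2 fold, higher then lower, were 334 and 338 against cluster 0, 174 and 245 against cluster 3, 286 and 209 against cluster 7, and 41 and 45 between arms, with 19 lower than blood. With no filter the lower counts were 1245, 781 and 731 against clusters 0, 3 and 7 and 169 against blood, and 645 and 666 between arms. At 1 CP10k they were 324, 217, 193 and 30, with 441 higher than cluster 7 and 64 and 81 between arms. Without shared barcodes 1094 genes were higher than cluster 7. In the Ly6C-low gate, where the depleted label has 7 cells, the arm counts were 331 and 528, and with the control label alone the blood counts were 163 and 172. The share ratio of 19.6 was that of cluster 4, and with all cells of the Ly6C-low gate counted in its place, whatever their cluster, it was 3.03. For cluster 4 among the cells of that gate the ratio was 11.8 (5.51 to 30.0). Reversed values were the classical marker median against cluster 0 (-0.066) and Cx3cr1 against blood (0.88), both with the control label alone, and between arms Cox6a2 (-0.47 without the deepest and shallowest 10% of cells, -0.51 in the gate), Ly6d (-1.87) and Smim5 (-0.15), both in the gate. The cause of these changes was not tested. The percent of cluster 4 cells that lie in the Ly6C-low gate has no value in the setting kept to that gate. All such cells lie in it by construction.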

Other observations

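Of 16 lysosome genes 10 were past 2 fold lower and 1 higher than in cluster 0 (median -1.35), 6 were lower than in cluster 3 (median -0.71), and 1 was lower and 6 were past 2 fold higher than in cluster 7 (median 0.65). Ctsd, a protease of the lysosome, stood at 6.82 CP10k against 87.3 in cluster 0, and Lgmn, another lysosomal protease, at 2.84 against 25.2. Of 11 measured glycolysis and hypoxia genes 5 were past 2 fold higher and 1 lower than in cluster 0, with Ldha, lactate dehydrogenase, at 5.23 CP10k against 2.09. Against cluster 3, 1 of 12 was past 2 fold higher and 0 lower (median -0.17), beside 9.48% and 12.4% of all measured genes. Csf1r, the receptor for the growth factor that macrophages and these monocytes depend on, stood at 10.9 CP10k, against 18.1, 5.29 and 2.77 in clusters 0, 3 and 7, and at 9.76 in blood cluster 1. Bcl2, a survival factor of nonclassical monocytes, stood at 1.45 CP10k against 0.576, 0.755 and 1.24. Between arm labels 0 of 16 lysosome genes and 0 of 10 glycolysis and hypoxia genes passed 2 fold. Over all measured genes 4.95% were past 2 fold higher under the depleted label and 6.50% lower, so few members would pass in lists of this size.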
